A study of Mus musculus with 32 samples.

Results

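The matrix metalloproteinases (MMPs), the ADAMs, the ADAMTS proteins and the tissue inhibitors of metalloproteinases (TIMPs) were measured in kidneys of mice that lack the collagen gene Col4a3, at 4 and 7 weeks of age. Members were the genes whose symbols begin with Mmp, Timp or Adam followed by a number, or with Adamts, among array features that name exactly 1 symbol, with the brightest feature standing for a symbol. This gave 82 members among 22180 genes. There were 22 MMPs, 33 ADAMs, 18 ADAMTS genes, 5 ADAMTS-like genes and 4 TIMPs. Of these, 73 belong to the MMP, ADAM and ADAMTS families, which are called the protease families here although some of their ADAMs lack a working catalytic site. Adam34, Adamts2 and Mmp15 were not analysed here.

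The mice were males of strain 129. KO mice carried the genotype Col4a3-/- and were studied at 7 weeks and at 4 weeks, and WT mice were Col4a3+/+ littermates of the same ages, with 8 mice in each of the 4 groups and 32 in all. Col4a3 encodes one of the type IV collagen chains from which the glomerular basement membrane is built, and mice without it are a model of Alport syndrome, a progressive kidney disease. Which stretch of Col4a3 the KO mice lack was not stated in the labels. The arrays, Affymetrix Mouse Gene 2.0 ST, read total RNA from kidney tissue. Values are log2 signals from robust multi-array averaging (RMA), so a difference of 1 is a change of 2-fold.

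MMPs are secreted or membrane-bound zinc proteases that are made as inactive precursors and cut collagens, elastin, laminins and many signalling proteins. ADAMs sit in the membrane and release the outer parts of growth factors, cytokines and receptors, although several members lack a working catalytic site or are known mainly from sperm. ADAMTS enzymes are secreted and cut proteoglycans, procollagens and fibrillin-associated proteins, while the ADAMTS-like proteins keep the matrix-binding repeats and have no protease domain. TIMPs bind the active site of MMPs and, to a varying degree, of ADAMs and ADAMTS enzymes. In injured kidneys these families are known for remodelling basement membrane and interstitial matrix and for shedding ligands of growth factor receptors.

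As a check of the labels, Col4a3 itself had signals of 6.97 to 7.87 in KO mice and 8.74 to 9.06 in WT mice at 7 weeks, and of 7.60 to 8.42 in KO mice and 8.46 to 9.33 in WT mice at 4 weeks. It was lower in KO mice by limma at both ages (-1.65 and -0.99), and the genotypes did not overlap at either age. Correlations between arrays of a group ranged from 0.965 to 0.995. Markers of other cells moved with the genotype at 7 weeks, and their values are given here once for all results at that age. All 10 macrophage and myeloid markers, all 9 fibroblast and myofibroblast markers and all 7 markers of injured tubules were higher in KO mice, as were 5 of 6 T cell markers. The mean macrophage marker signal of a mouse was 7.93 to 9.29 in KO mice and 6.18 to 6.45 in WT mice, that of fibroblast markers 8.57 to 9.44 in KO and 7.40 to 7.78 in WT, and that of injured tubule markers 9.19 to 10.39 in KO and 7.15 to 7.50 in WT. The mean T cell marker signal was 5.62 to 6.41 in KO mice and 5.12 to 5.31 in WT mice. Of 8 neutrophil markers, Csf3r was higher and Camp lower, and the mean signal was 4.61 to 4.85 in KO and 4.53 to 4.82 in WT. Markers of kidney epithelium were present in all groups, with 3 of 7 lower in KO mice (mean signal 10.84 to 11.28 in KO and 11.18 to 11.46 in WT). Of 6 endothelial markers, 3 were lower (9.06 to 9.40 in KO and 9.31 to 9.51 in WT). In whole tissue, more cells of a type and more RNA per cell cannot be told apart, and the part of cell composition in the results was not tested.

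At 7 weeks, 33 of the 82 members (40.2%) were higher in KO than in WT kidneys, 7 were lower and 42 did not pass the test. A gene passed, or was called, at an adjusted p below 0.05 from limma with Benjamini-Hochberg adjustment over all 22180 genes. Over all genes 15.6% were called higher and 16.7% lower. The median log2 difference was 0.08 over the members and -0.06 over all genes. Every KO mouse lay above every WT mouse for 20 members, against 7.62% of all genes, and the reverse, all KO mice below all WT mice, held for 0 members, against 5.42% of all genes. Of the called members 19 were at least 1.5-fold higher, against 6.83% of all genes, and 7 were at least 2-fold higher, against 3.23%. In the other direction 1 member was called and at least 1.5-fold lower, against 2.92% of all genes, and 0 were at least 2-fold lower, against 0.55%. Of the protease families 27 of 73 genes were higher and 7 lower, and of the inhibitors 2 of 4 were higher and 0 lower. These counts depend in part on the scaling. When each array was centred on the median of the tested genes, which shifts the comparison by 0.114, 31 members were higher and 21 lower, and none of the added falls was an MMP. The falls also numbered 12 with array weights and 11 with only the 7-week groups fitted, beside 34 and 32 rises.

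**Figure D1:**
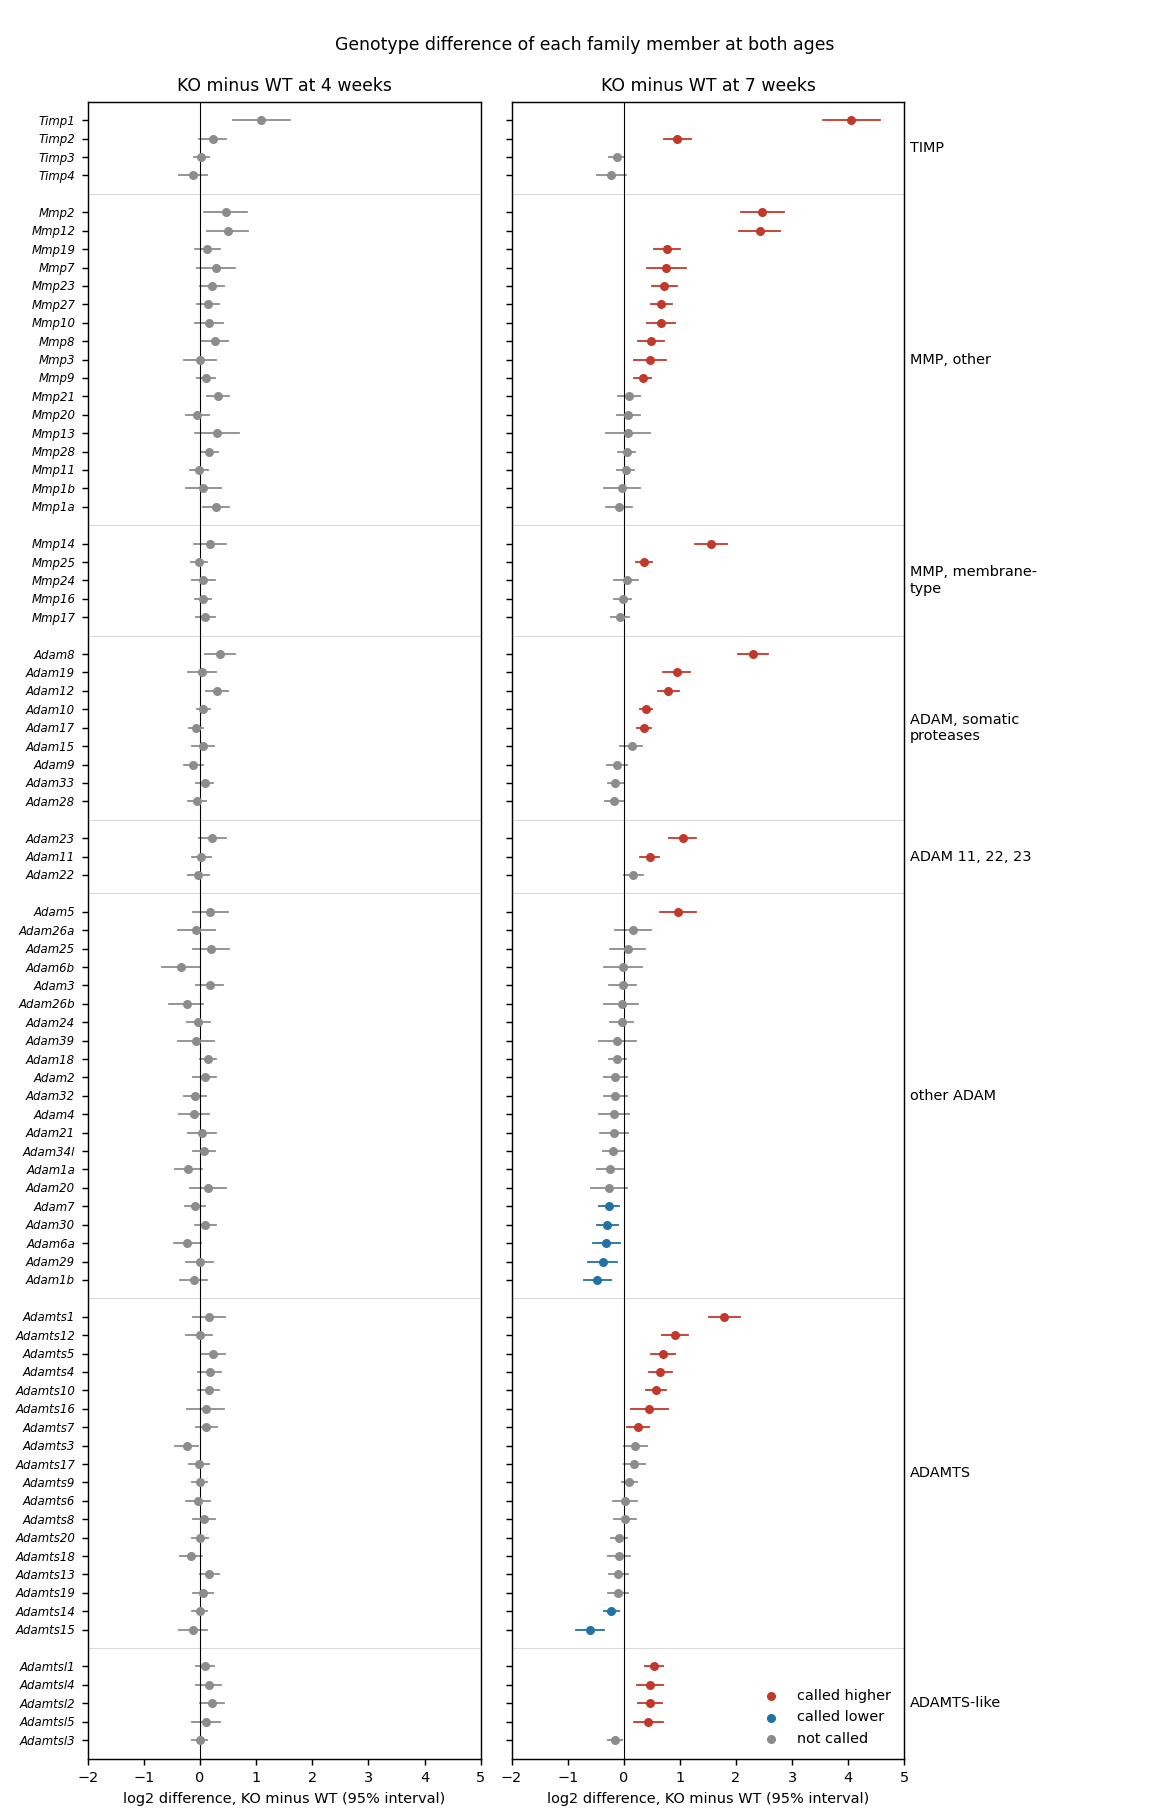
Difference between KO and WT kidneys for each of the 82 members, at 4 weeks in the left panel and at 7 weeks in the right panel (log2 scale; points are estimates and lines 95% intervals, n = 8 mice per group). At 4 weeks no member was called. At 7 weeks 33 were higher and 7 lower, with Timp1 farthest to the right at 4.05 and most other ADAMs at or left of 0.

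The inhibitors split, with the largest rise of all members in Timp1 and a smaller one in Timp2. Timp1, a secreted inhibitor of most MMPs that is known to be induced by injury and cytokines, had a lowest, median and highest signal of 8.68, 9.39 and 10.40 in KO mice and 5.05, 5.32 and 5.66 in WT mice at 7 weeks. The lowest KO mouse stood about 3 log2 units above the highest WT mouse. The difference was 4.05 ± 0.25 (SE), a 16.5-fold rise (limma adjusted p = 9.76e-14). Timp2, which besides inhibiting MMPs helps Mmp14 activate Mmp2 at the cell surface, had 8.44, 9.04 and 9.50 in KO mice and 7.88, 8.05 and 8.20 in WT mice. All 8 KO mice were above all WT mice again, and the difference was 0.95 ± 0.12 (limma adjusted p = 1.12e-07).

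Timp3 and Timp4 were not called. Timp3, the matrix-bound inhibitor that also acts on Adam17 and ADAMTS enzymes, had 12.51, 12.66 and 12.79 in KO mice and 12.68, 12.79 and 12.88 in WT mice, with overlapping groups and a difference of -0.13 ± 0.07 (limma adjusted p = 0.123). Timp4 was dim, at 4.29, 4.67 and 4.89 in KO mice and 4.67, 4.88 and 5.05 in WT mice, and its difference was -0.22 ± 0.12 (limma adjusted p = 0.172). Both were called lower when the arrays were centred on the median of the tested genes (-0.25 and -0.34), when arrays were weighted (-0.14 and -0.27) and when only the 7-week groups were fitted (-0.13 and -0.22). In none of these settings did either gene turn upward.

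**Figure D2:**
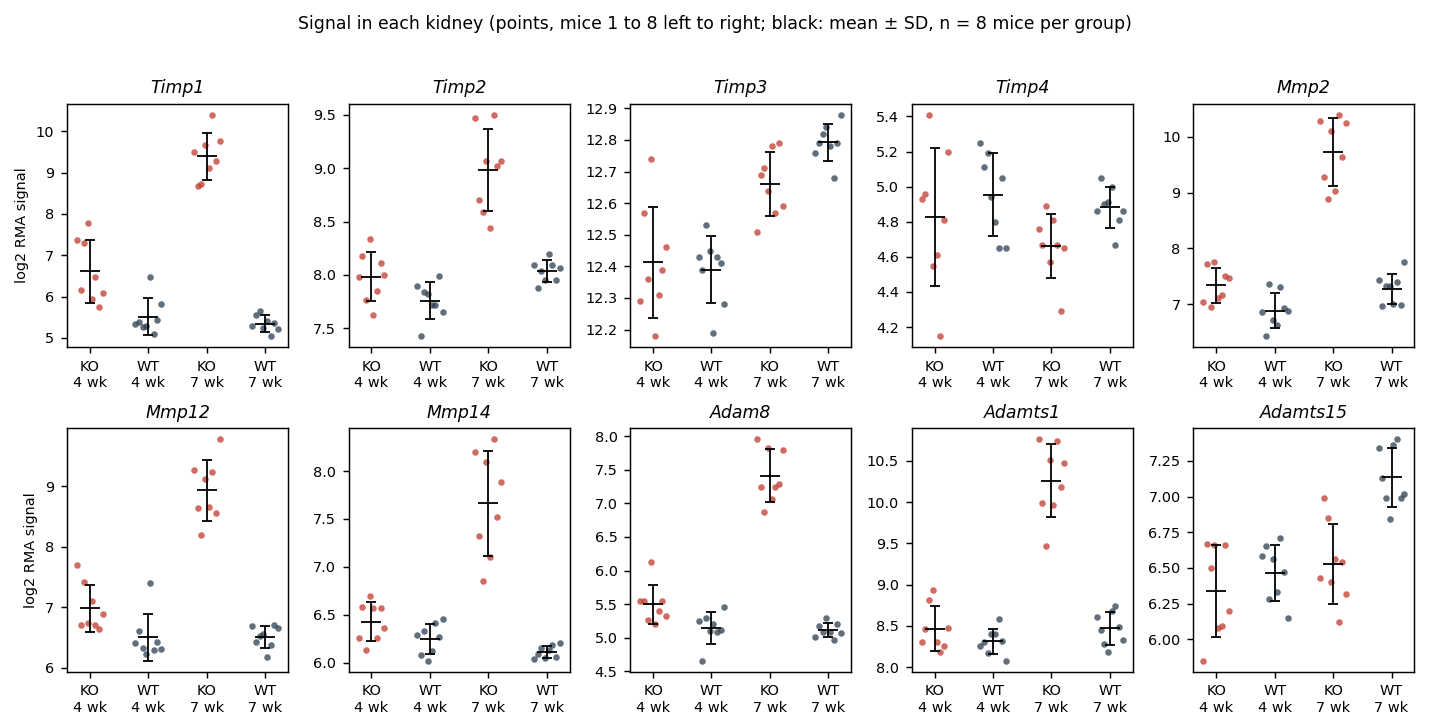
Log2 RMA signal of the 4 TIMPs and of 6 protease genes in each of the 32 kidneys, at 4 and then at 7 weeks (points are mice, black bars mean ± SD, n = 8 per group; each panel has its own axis). At 7 weeks the KO mice lie above all WT mice for Timp1, Timp2, Mmp2, Mmp12, Mmp14, Adam8 and Adamts1, overlap the WT mice for Timp3 and Timp4, and lie mostly below them for Adamts15.

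Among the MMPs, 12 of 22 were higher in KO kidneys at 7 weeks and 0 were lower, with a median difference of 0.35. Mmp2, the gelatinase of fibroblasts that cuts denatured and type IV collagen, had 8.89, 9.87 and 10.40 in KO mice and 6.96, 7.32 and 7.76 in WT mice as lowest, median and highest signal. Mmp12, the macrophage elastase, had 8.19, 8.89 and 9.77 in KO mice and 6.17, 6.54 and 6.70 in WT mice. For both genes all KO mice exceeded all WT mice, with differences of 2.46 ± 0.19 for Mmp2 (5.51-fold) and 2.42 ± 0.18 for Mmp12 (5.35-fold), at limma adjusted p = 4.22e-12 and 2.50e-12. Mmp14, the membrane-type collagenase that activates Mmp2, had 6.85, 7.71 and 8.33 in KO mice and 6.04, 6.11 and 6.20 in WT mice. Its WT values spanned a narrow band and the KO values spread widely above it, with a difference of 1.55 ± 0.14 (2.93-fold, limma adjusted p = 2.88e-10). The macrophage and fibroblast marker signals given above were higher in the same KO kidneys.

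The other 9 MMPs that rose did so by less than 1 log2 unit. They were Mmp19 (0.77), the epithelial matrilysin Mmp7 (0.76), Mmp23 (0.72), Mmp27 (0.67), the stromelysins Mmp10 (0.66) and Mmp3 (0.47, with a mean signal below 5 in every group), the neutrophil collagenase Mmp8 (0.49), the leukocyte membrane-type enzyme Mmp25 (0.36) and gelatinase B, Mmp9 (0.34). Mmp9 had 5.72, 5.79 and 5.95 in KO mice and 5.07, 5.56 and 5.67 in WT mice, so that the groups separated by a narrow margin. Mmp7 had 4.81, 5.57 and 6.44 in KO mice and 4.59, 4.86 and 5.07 in WT mice, and 6 of 8 KO mice exceeded all WT mice. A second, dimmer Mmp7 feature differed by 0.05, against 0.76 for the feature used. The interstitial collagenase Mmp13 was not called, at 4.90, 5.17 and 5.67 in KO mice and 4.95, 5.12 and 5.50 in WT mice (0.08 ± 0.19). Of the 5 membrane-type MMPs, Mmp14 and Mmp25 rose, and Mmp16, Mmp17 and Mmp24 differed by -0.06 to 0.05 and were not called.

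Of the MMP genes, 10 lie next to each other on chromosome 9, in the RefSeq order Mmp13, Mmp12, Mmp1b, Mmp3, Mmp1a, Mmp10, Mmp8, Mmp27, Mmp20 and Mmp7. In this run 6 genes were higher in KO kidneys and 4 were not called, and the genes that rose were interspersed with genes that did not. Their promoters are shown because most of them hold a sequence that the choice of members did not use. The letters TGANTCA, the pattern bound by AP-1 factors and the same on both strands, occurred in the 250 bases before a start of 8 of the 10 genes, 4 of them called higher and 4 not called. Over the whole family the letters stood in 12 of 56 promoters of 51 members (21.4%), in 5 of 26 promoters of members higher at 7 weeks (19.2%) and in 6.75% of all 32851 RefSeq promoters. Of the 12 member promoters with the letters, 8 belong to this run of neighbouring genes. The pattern TTCNNNGAA of STAT factors, which was searched on both strands too, occurred in 4 of 56 member promoters (7.14%) and in 7.02% of all. A match describes the letters only. The 100 bases before the start, from RefSeq on build GRCm38.p6, lie at chr9:7347274-7347373 for Mmp12, chr9:7445722-7445821 for Mmp3, chr9:7502242-7502341 for Mmp10, chr9:7691990-7692089 for Mmp7, chr9:7272414-7272513 for Mmp13, chr9:7464041-7464140 for Mmp1a, chr9:7558329-7558428 for Mmp8, chr9:7571296-7571395 for Mmp27 and chrX:20870066-20870165 for Timp1, all on the plus strand. Capitals mark the AP-1 letters, and for Mmp12 and Mmp7, which have 2 starts each, the start with the letters is shown. The first 4 sequences belong to genes of the run that rose and hold the letters, the next 2 to genes that hold them and were not called, and the last 3 to genes that rose without them in these bases.
Mmp12: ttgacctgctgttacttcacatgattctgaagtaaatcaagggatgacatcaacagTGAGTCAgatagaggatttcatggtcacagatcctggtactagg
Mmp3: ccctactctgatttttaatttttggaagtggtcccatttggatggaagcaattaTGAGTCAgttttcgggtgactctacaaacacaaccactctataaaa
Mmp10: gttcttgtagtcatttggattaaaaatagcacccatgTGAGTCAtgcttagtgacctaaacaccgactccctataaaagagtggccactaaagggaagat
Mmp7: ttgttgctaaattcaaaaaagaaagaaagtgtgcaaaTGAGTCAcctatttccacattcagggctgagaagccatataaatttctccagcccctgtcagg
Mmp13: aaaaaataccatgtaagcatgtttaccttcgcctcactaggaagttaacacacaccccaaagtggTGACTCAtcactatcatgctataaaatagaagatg
Mmp1a: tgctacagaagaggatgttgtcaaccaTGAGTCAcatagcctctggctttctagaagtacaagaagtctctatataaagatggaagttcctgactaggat
Mmp8: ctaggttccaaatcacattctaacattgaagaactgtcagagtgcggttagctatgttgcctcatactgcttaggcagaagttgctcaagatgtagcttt
Mmp27: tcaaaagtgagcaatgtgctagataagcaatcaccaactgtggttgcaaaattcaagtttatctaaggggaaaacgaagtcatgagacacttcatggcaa
Timp1: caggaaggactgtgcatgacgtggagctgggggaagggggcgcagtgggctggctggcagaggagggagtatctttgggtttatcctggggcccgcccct
The AP-1 letters began 44 bases before the start in Mmp12, 46 in Mmp3 and 63 in Mmp10 and Mmp7, all 4 called higher. In the 4 genes that were not called they began 35 bases before the start in Mmp13, 73 in Mmp1a, 93 in Mmp1b and 95 in Mmp20. In Mmp12 the letters stand before the inner of its 2 starts, and the 250 bases before its outer start hold none. The distances are a description of these 8 genes, and a link to the calls was not tested.

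**Figure D3:**
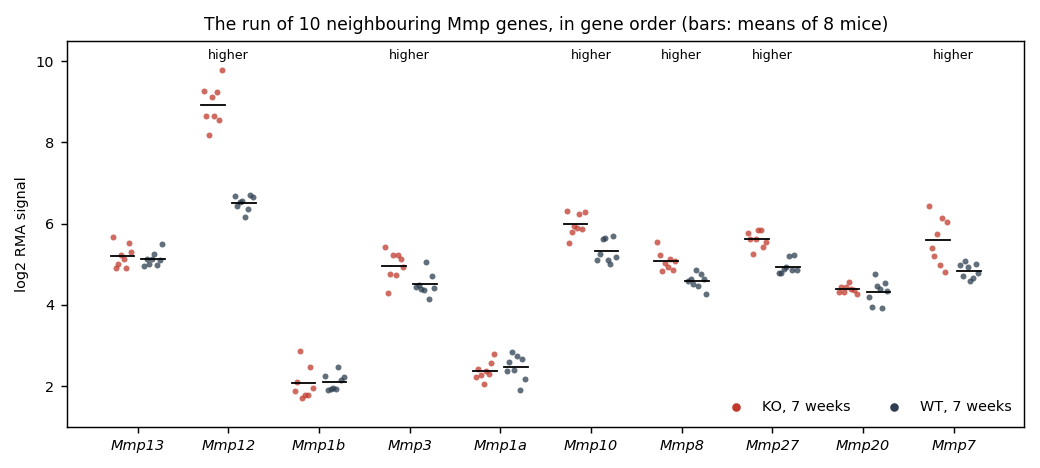
Log2 RMA signal of the 10 neighbouring Mmp genes of chromosome 9 in KO and WT kidneys at 7 weeks, in gene order (points are mice, bars means, n = 8 per group; the genes called higher are marked). Mmp12 separates widely, Mmp3, Mmp10, Mmp8, Mmp27 and Mmp7 rise by 0.47 to 0.76, and Mmp13, Mmp1b, Mmp1a and Mmp20 overlap. Signals of different genes are not comparable with each other.

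The ADAMs are described in groups drawn from general knowledge, with earlier results of these data known. Of 9 ADAMs known as working proteases of body tissues, 5 were higher and 0 lower (median 0.36). Only 1 of the 9 had a mean signal below 5 in every group, against 15 of the 21 ADAMs grouped last. Adam8, a protease of leukocytes, had 6.87, 7.27 and 7.95 in KO mice and 4.97, 5.09 and 5.30 in WT mice, with no overlap. Its difference was 2.30 ± 0.13 (4.92-fold, limma adjusted p = 5.47e-14). The 10 macrophage markers differed by 0.56 to 4.07 in the same mice (median 2.29), and a link to Adam8 was not tested. The sheddases Adam10 and Adam17, which release Notch and growth factor ligands, rose by 0.39 ± 0.06 and 0.36 ± 0.06, with every KO mouse above every WT mouse for each. Adam12, known from fibroblasts and muscle, rose by 0.79 ± 0.09, and Adam19 by 0.94 ± 0.12, although a second, dimmer Adam19 feature differed by -0.07. Adam9, Adam15, Adam28 and Adam33 differed by -0.17 to 0.14 and were not called.

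Adam11, Adam22 and Adam23 were grouped as ADAMs that lack a catalytic zinc site and serve in adhesion and neuronal signalling. Of these 3, which need not be the only ADAMs without the site, 2 were higher. Adam23 had 5.68, 5.97 and 6.41 in KO mice and 4.56, 4.97 and 5.23 in WT mice, a separation with a difference of 1.05 ± 0.12 (limma adjusted p = 2.63e-08). Adam11 rose by 0.46, and Adam22 (0.17) was not called.

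The 21 remaining ADAMs, most of them known from testis or epididymis, had 1 higher (4.76%) and 5 lower (23.8%). Over all genes the shares were 15.6% and 16.7%. A mean signal below 5 in every group was found for 15 of the 21. The 1 rise was in Adam5, at 4.23, 5.20 and 6.08 in KO mice and 4.08, 4.18 and 4.37 in WT mice. In it 7 of 8 KO mice exceeded all WT mice (0.97 ± 0.15). The falls were small, and 4 of the 5 were in genes with a mean below 5 in every group. Adam1b had 4.50, 4.70 and 5.15 in KO mice and 4.83, 5.28 and 5.41 in WT mice (-0.47), Adam29 had 1.79, 2.07 and 2.34 in KO mice and 2.04, 2.46 and 3.05 in WT mice (-0.38), and Adam6a had 4.00, 4.20 and 4.32 in KO mice and 3.85, 4.56 and 4.92 in WT mice (-0.31). The groups overlapped in all 3. Adam30 (-0.30) and Adam7 (-0.26) were lower as well. The call of Adam6a was lost on leaving out any of 10 mice (KO mice 2, 3, 4, 7 and 8 or WT mice 1, 3, 4, 6 and 8; -0.31 to -0.25, limma adjusted p 0.051 to 0.105), and that of Adam7 on leaving out KO mouse 2 (-0.19, limma adjusted p = 0.0648). Adam6a and Adam6b, Adam1a and Adam1b, Adam26a and Adam26b, and Mmp1a and Mmp1b are close copies, whose probes may read both, so these values are uncertain.

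Of the 18 ADAMTS genes 7 were higher and 2 lower. Adamts1, which cuts the proteoglycans aggrecan and versican, had 9.47, 10.32 and 10.76 in KO mice and 8.18, 8.47 and 8.74 in WT mice. The groups did not overlap, and the difference was 1.79 ± 0.14 (3.46-fold, limma adjusted p = 5.42e-12). Its neighbour on chromosome 16, the aggrecanase Adamts5, rose by 0.70 ± 0.10, and the other aggrecanase, Adamts4, by 0.65 ± 0.10. Adamts12 rose by 0.92, Adamts10, which acts on fibrillin microfibrils, by 0.58, Adamts16 by 0.45 and Adamts7 by 0.26. The last 2 calls were lost when single mice were left out and when arrays were centred on the median of the tested genes (0.34 for Adamts16 and 0.14 for Adamts7). Adamts7 was also not called with each array centred on its median over all features, nor Adamts16 with only the 7-week groups fitted. Adamts16 lost its call on leaving out KO mouse 1, 4 or 6 or WT mouse 5 or 6 (0.31 to 0.42, limma adjusted p 0.0539 to 0.0884), and its highest KO value was 8.20 against a KO median of 7.00. Adamts7 lost its call on leaving out KO mouse 1, 6 or 8 or WT mouse 1, 2 or 4 (0.21 to 0.25, limma adjusted p 0.0587 to 0.0961).

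Adamts15, a versican-cutting enzyme, showed the largest fall of all members. Its signals were 6.12, 6.49 and 6.99 in KO mice and 6.84, 7.08 and 7.40 in WT mice, and 6 of 8 KO mice lay below all WT mice. The difference was -0.61 ± 0.12 (1.52-fold lower, limma adjusted p = 0.000219). The procollagen N-proteinase Adamts14 was lower by a smaller margin (-0.22 ± 0.07), while Adamts3, of the same kind, was not called (0.20). Of the 5 ADAMTS-like genes 4 were higher, namely Adamtsl1 (0.54), the fibrillin binders Adamtsl2 and Adamtsl4 (0.47 each) and Adamtsl5 (0.43), and Adamtsl3 (-0.16) was not called.

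The KO mice at 7 weeks differed among themselves in a shared way. Mice 1, 4, 6 and 8 were among the 4 highest of the 8 KO mice for 31, 29, 30 and 28 of the 33 risen members, and mice 2, 3, 5 and 7 for 4, 1, 2 and 7. The median rise over the WT mean was 0.95, 0.73, 1.01 and 0.84 in mice 1, 4, 6 and 8, and 0.57, 0.38, 0.41 and 0.47 in mice 2, 3, 5 and 7. The macrophage, injured tubule, fibroblast and T cell marker signals split the KO mice in the same way. Neutrophil, kidney epithelium and endothelial signals overlapped between the same sets of mice. Mean neutrophil signal was 4.61 to 4.85 in mice 1, 4, 6 and 8 and 4.70 to 4.80 in the other 4. Mean kidney epithelium signal overlapped only narrowly, at 10.84 to 11.06 in mice 1, 4, 6 and 8 and 11.02 to 11.28 in the other 4. Mean endothelial signal was 9.06 to 9.18 in mice 1, 4, 6 and 8 and 9.10 to 9.40 in the other 4. Mean T cell signal was 6.02 to 6.41 in mice 1, 4, 6 and 8 and 5.62 to 5.89 in the other 4. Mean macrophage signal was 9.11 to 9.29 in mice 1, 4, 6 and 8 and 7.93 to 8.48 in the other 4, and mean injured tubule signal was 10.13 to 10.39 in mice 1, 4, 6 and 8 and 9.19 to 9.77 in the other 4. Mean fibroblast signal was 9.17 to 9.44 in mice 1, 4, 6 and 8, and 8.57 to 8.97 in the other 4. This grouping was read from the values and was given no test.

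**Figure D4:**
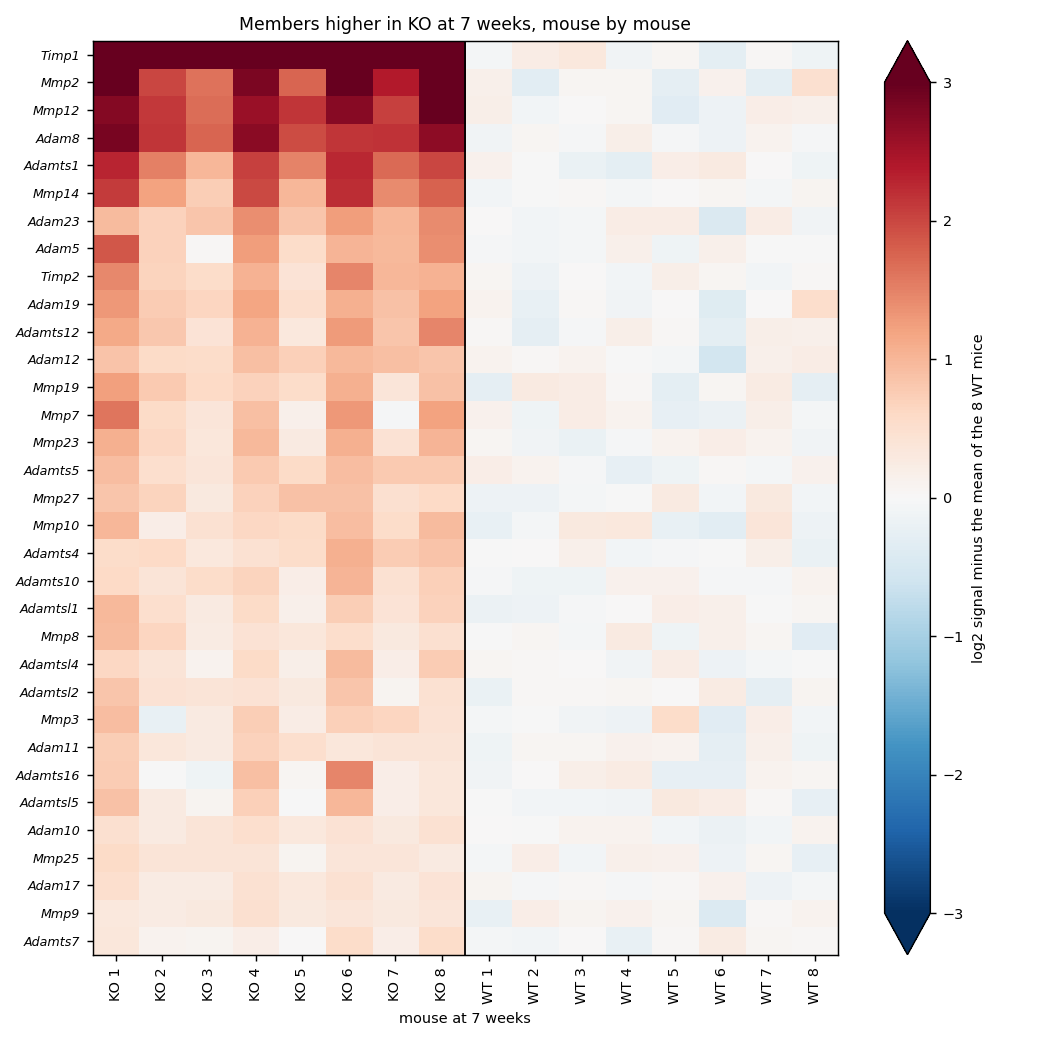
Signal of each of the 33 members called higher at 7 weeks, in each KO mouse (left of the line) and each WT mouse (right), as the log2 difference from the mean of the 8 WT mice (colours stop at 3 and -3). The genes were chosen for a KO excess, so the contrast between the genotypes was fixed by that choice, and what can be read is the evenness down each column: KO mice 1, 4, 6 and 8 are darker than KO mice 2, 3, 5 and 7 for most genes.

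Other genes that act on the same substrates or that switch these enzymes on were examined as a list of 27, of which 26 were measured. At 7 weeks 11 were higher in KO kidneys (42.3%), 6 were lower (23.1%) and 9 were not called, with a median difference of 0.14. Over all genes 15.6% were higher and 16.7% lower. The plasminogen system, which activates several MMPs, contributed the activators Plat (1.15 ± 0.15) and Plau (0.40 ± 0.11) and the urokinase receptor Plaur (0.90 ± 0.11), while plasminogen itself, Plg, was not called (-0.23 ± 0.09). Bmp1, the procollagen C-proteinase, rose by 1.18 ± 0.15 and its enhancers Pcolce and Pcolce2 by 0.74 and 0.37. Rhbdf2, which guides Adam17 to the cell surface, rose by 0.85 ± 0.14, whereas Rhbdf1 was not called (0.20). Tspan15, a partner of Adam10, rose by 0.22, the shed proteoglycan Sdc1 by 0.81, the scavenging receptor Lrp1, which clears MMPs and TIMPs, by 0.75, and the metalloproteinase Pappa by 0.77. The falls were in Mep1b (-1.50 ± 0.31) and Mep1a (-0.27 ± 0.07), the meprins of the proximal tubule brush border, in the proprotein convertases Pcsk6 (-0.79) and Pcsk5 (-0.34), in the kallikrein Klk1 (-0.33) and in the MMP inducer Bsg (-0.11). The membrane-bound MMP inhibitor Reck was not called (0.08 ± 0.10), nor were A2m, Adamdec1, Furin, Serpinb2, Tfpi2 and Tll1.

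At 4 weeks 0 of the 82 members were called by limma, against 0.0406% of all genes. All 82 overlapped between the genotypes. The share over all genes is not given here, so this count shows nothing particular to the family. At an unadjusted p below 0.05 there were 12 members (14.6%), 10 of them higher in KO mice, against 9.22% of all genes. Timp1 had the largest difference. It measured 5.76, 6.31 and 7.78 in KO mice and 5.09, 5.36 and 6.48 in WT mice (1.09 ± 0.25, limma adjusted p = 0.101). Without WT mouse 5 the difference was 1.23 (limma adjusted p = 0.023), and without KO mouse 7 it was 1.22 (0.0412), so that 1 member was then called. The next differences were 0.49 for Mmp12 and 0.46 for Mmp2 (limma adjusted p = 0.413 and 0.454). None of the 26 other pathway genes was called at 4 weeks by limma, and 1 had an unadjusted p below 0.05.

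Timp1 at 4 weeks was high in single mice. KO mice 1, 3 and 4 had 7.36, 7.30 and 7.78, and the other 5 KO mice had 5.76 to 6.47, while WT mouse 5 had 6.48 and the other WT mice 5.09 to 5.82. The mean injured tubule marker signal was 8.24, 8.41 and 8.65 in KO mice 1, 3 and 4 and 7.40 to 7.75 in the other KO mice, and 8.10 in WT mouse 5 and 7.12 to 7.41 in the other WT mice. The mice with most Timp1 were thus the mice with most signal of injured tubules in both genotypes. Mean macrophage signal was also highest in KO mice 1, 3 and 4, at 7.01 to 7.15 against 6.36 to 6.65 in the others. Among WT mice it was 6.71 in mouse 5, 6.96 in mouse 8 and 6.08 to 6.25 in the others. The groups of mice were read from the values, and no test was made. Of the 33 members higher at 7 weeks, 29 had a positive difference at 4 weeks (87.9%, median 0.16), against 71.4% of all genes higher at 7 weeks (median 0.07). No mouse is shared by the 2 comparisons.

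For 25 members the genotype difference was larger at 7 than at 4 weeks by limma's test of that change, and for 1 it was smaller, against 9.8% and 7.24% of all genes. Timp1 grew most (2.95 ± 0.35, limma adjusted p = 7.13e-07), followed by Mmp2 (2.01 ± 0.27), Adam8 (1.95 ± 0.19), Mmp12 (1.93 ± 0.25), Adamts1 (1.63 ± 0.20) and Mmp14 (1.37 ± 0.20). Timp2 grew by 0.72 ± 0.17 (limma adjusted p = 0.00251), and Timp3 and Timp4 were not called. By family these were 8 MMPs, 8 ADAMs, 7 ADAMTS or ADAMTS-like genes and 2 TIMPs. The 1 fall was in Adam30 (-0.39 ± 0.13, limma adjusted p = 0.0352), and the fall of Adamts15 missed the threshold (-0.48, limma adjusted p = 0.0579). With arrays centred on the median of the tested genes the counts were 21 larger and 11 smaller, and Mmp10, Adamts3, Adamts4 and Adamts5 were not called. With array weights Mmp10 (0.44) and Adam30 (-0.32) were not called, while Mmp3 (0.56) and Adamts15 (-0.47) were. The differences of all 10 macrophage, all 9 fibroblast and all 7 injured tubule markers grew as well, and their part in these changes was not tested. Leaving out single mice ended the call of Mmp10 for 20 of the 32 mice (0.43 to 0.51), of Adam30 for 9 (-0.38 to -0.33) and of Adamts3 for 4 (0.38 to 0.40), and gave a call to Adamts15 for 7 (-0.55 to -0.51), to Mmp3 and Adam18 for 2 each and to Adam33 and Mmp1a for 1 each.

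Within KO mice, 34 members were higher and 7 lower at 7 than at 4 weeks, against 21.4% and 21.3% of all genes. Timp1 was higher by 2.79 ± 0.25, Mmp2 by 2.39 ± 0.19, Mmp12 by 1.95 ± 0.18, Adam8 by 1.91 ± 0.13, Adamts1 by 1.79 ± 0.14 and Mmp14 by 1.24 ± 0.14. Next came Timp2 (1.00), Adam23 (0.94), Adamts12 (0.70) and Mmp19 (0.65). The rises took in 11 of 22 MMPs and 3 of 4 TIMPs, Timp3 (0.25) among them. The largest falls were in Adam4 (-0.76) and Adamts6 (-0.54). With arrays centred on the median of the tested genes there were 32 rises and 22 falls. All 10 macrophage, 9 fibroblast and 7 injured tubule markers were higher at 7 weeks in KO mice too. Mmp3 (0.38) lost its call on leaving out KO mouse 2 at 4 weeks or KO mouse 1, 4 or 6 at 7 weeks (0.32 to 0.35).

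Within WT mice 5 members were higher and 8 lower at 7 than at 4 weeks, against 15.4% and 14.1% of all genes. None of the 22 MMPs was called by limma, and 3 had an unadjusted p below 0.05. With each array centred on its median over all features, however, 13 members were higher and 5 lower, among them Mmp17 (0.26) and Mmp28 (0.20), while Adam10, Adam22 and Adam26a lost their calls. With only the WT groups fitted, Mmp2 (0.39) and Timp2 (0.28) were called higher and Adamts12 (-0.23) lower. The rises were in Adamts15 (0.67 ± 0.12), Adam15 (0.42), Timp3 (0.40 ± 0.07), Adam9 (0.38) and Adamtsl2 (0.38). Adamts15 had 6.84, 7.08 and 7.40 at 7 weeks and 6.15, 6.51 and 6.71 at 4 weeks in WT mice, without overlap. In KO mice its values overlapped between the ages, at 6.12, 6.49 and 6.99 at 7 weeks and 5.85, 6.35 and 6.67 at 4 weeks, and the change was not called. The falls were in Adam4 (-0.69), Adamts6 (-0.60), Adam26a (-0.47), Adam19 (-0.46), Adamts10 (-0.36), Adamts9 (-0.35), Adam22 (-0.25) and Adam10 (-0.22). Adam22 lost its call on leaving out WT mouse 4 at 4 weeks or WT mouse 2 or 3 at 7 weeks (-0.23 to -0.22), and Adam26a on leaving out WT mouse 5 or 6 at 4 weeks (-0.39 to -0.35). Adam19, Adamts10 and Adam10 fell with age in WT mice, and in KO mice their changes were 0.44, 0.07 and 0.12, with the first of these called. With the mean of both Adam19 features, neither change of Adam19 was called (0.21 in KO and -0.19 in WT).

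**Figure D5:**
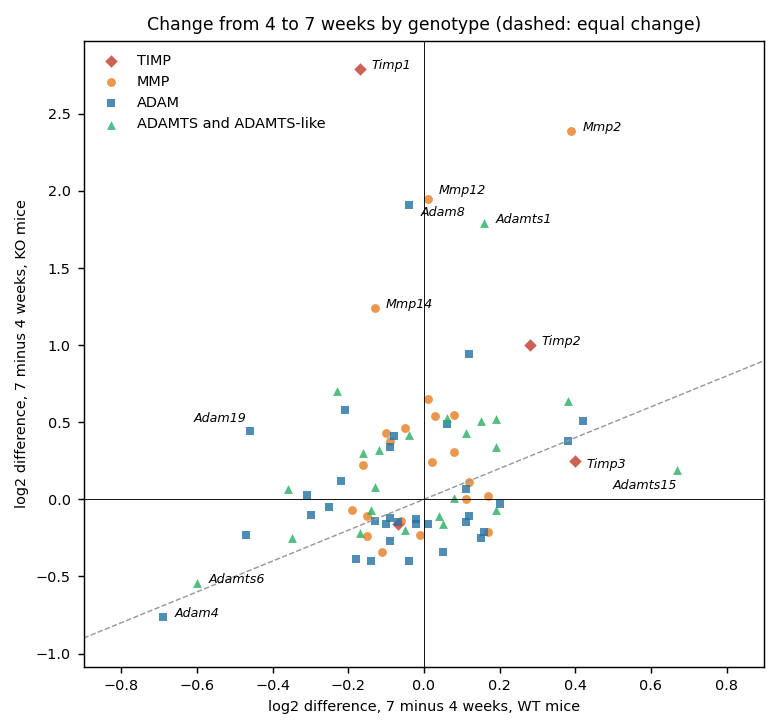
Change of each of the 82 members between 4 and 7 weeks in KO mice (vertical axis) and in WT mice (horizontal axis), as log2 differences of group means of 8 mice, with the axes on different scales and a dashed line for equal changes. The genes with the largest rises in KO mice, from Timp1 (2.79) to Mmp14 (1.24), changed by at most 0.39 in WT mice, and Adam4 and Adamts6 fell in both.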

How the data were processed

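Gene-level signals on the log2 scale were deposited by the authors. They come from robust multi-array averaging in Affymetrix Expression Console, per the submitters' processing notes and the labels, with no version stated. RNA was kept in RNAlater and extracted with the miRNeasy Mini Kit, per the labels' protocols. All 32 array columns were matched to a sample by its label. Scanner files and scan batches were not used here. Of 41345 features, 23521 name 1 symbol, 1814 several and 16010 none. For symbols with several such features the one with the highest mean was kept, which gave 22180 genes, and 6 members had more than 1 feature. All 82 members matched RefSeq symbols.

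The fit used limma 3.58.1 under R 4.3.3, with the R package for reading files (data.table) at version 1.17.8. It was 1 linear model with a mean for each of 4 groups of 8 mice and 28 residual degrees of freedom. The 5 comparisons were KO against WT at each age, the change of that difference with age, and 7 against 4 weeks in KO and in WT. Benjamini-Hochberg adjustment of the p-values ran over all 22180 genes, with a threshold of 0.05, and the procedure was tested on simulated data. The number of arrays limits the precision. Promoters were searched over the 250 bases before each RefSeq start, and figures were drawn in Python 3.11.15 (numpy 2.4.6, pandas 2.3.3, matplotlib 3.10.9).

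The alternatives were other array centrings, the mean of all features of a symbol, a filter at a log2 signal of 5, array weights, another variance prior, the replicate block, only the groups compared, and leaving out each mouse. The centring on tested genes was added after seeing the data. Members, gene lists and ADAM groups were chosen with earlier results of these data known. ADAMs were grouped from general knowledge, since the planned grouping by the zinc motif of their proteins could not be made here. Any member could be named, with values by mouse for the TIMPs and for the 6 largest other rises and 4 largest falls at 7 weeks. In the other comparisons up to 10 called members per direction and the largest ones not called are named. Adam5, Mmp7, Mmp9, Mmp13 and other members with ranges or details beyond this rule, Adam19 among them, were chosen after their values were seen. The deviations of same-numbered mice of different groups had correlations of -0.27 to 0.23. Whether mice with the same number share a litter or a processing step was not tested.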

Additional observations from a re-analysis of the deposited data

Results flagged for a closer look

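The genotype difference at 7 weeks exceeded that at 4 weeks, by limma's test of the difference itself, for 25 members and fell short of it for 1. On the log2 scale the largest increases were 2.95 for Timp1, 2.01 for Mmp2, 1.95 for Adam8, 1.93 for Mmp12, 1.63 for Adamts1 and 1.37 for Mmp14. Adamts12 (0.93), Adam19 (0.90), Adam23 (0.82), Adam5 (0.79), Timp2 (0.72) and Mmp19 (0.64) followed. Increases of 0.43 to 0.53 were found for Mmp27 (0.53), Mmp23 (0.51), Mmp10 (0.51), Adam12 (0.49), Adamts4 (0.47), Adamts5 (0.47), Adamtsl1 (0.45), Adamts3 (0.44), Adamts10 (0.43), Adam11 (0.43) and Adam17 (0.43), and smaller ones for Mmp25 (0.38) and Adam10 (0.34). The 1 decrease was Adam30 (-0.39).

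Among the members with values by mouse, 5 of 56 groups of 8 mice held a mouse whose gap to its nearest neighbour exceeded 0.526 of the group's range, Dixon's critical value. Chance alone flags about 1 in 20 such groups. Adam8 measured 6.12 in KO mouse 4 at 4 weeks, and the other KO mice had 5.21 to 5.55. It measured 4.66 in WT mouse 2 at 4 weeks, against 5.09 to 5.46 in the other WT mice. Adam23 measured 4.60 in KO mouse 5 at 4 weeks, where the others had 5.03 to 5.42. Mmp12 measured 7.40 in WT mouse 5 at 4 weeks, and the others had 6.23 to 6.61. Adam6a measured 5.03 in WT mouse 4 at 4 weeks, with the others at 4.38 to 4.62.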

How the results depend on the processing

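Of 33 members higher at 7 weeks, 31 kept the call wherever they were tested among the 40 alternative settings, Adamts7 and Adamts16 being the exceptions, and of 7 lower members 5 did, the exceptions being Adam6a and Adam7. No called member changed sign at 7 weeks. The count of called members at 4 weeks was 0 to 1 on leaving out single mice, with 1 without WT mouse 5 and 1 without KO mouse 7, in both cases Timp1. Leaving out single mice gave 38 to 41 called members at 7 weeks, 24 to 28 for the difference between the ages, 41 to 45 for age in KO and 12 to 16 for age in WT. With the replicate block these counts were 40 at 7 weeks, 0 at 4 weeks, 26 for the difference between the ages, 42 for age in KO and 13 for age in WT, and its only change of a call was Adamts19 with age in KO (-0.20). Centring on the tested genes, added after seeing the data, moved the split at 7 weeks to 31 higher and 21 lower, array weights to 34 and 12, only the 7-week groups to 32 and 11, and the filter on dim genes to 32 and 4. Centring on all features moved the split for age in WT to 13 higher and 5 lower; the causes were not tested. The filter on dim genes leaves 57 members and so cannot speak for the other 25. Those 25 include the called Adam29, Adam6a, Adam30, Adam7 and Mmp3, and how far their signals stand above background was not tested.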

Other observations

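Other family genes also lie side by side. On chromosome 8, in the run Adam18, Adam3, Adam5, Adam32 and Adam9, Adam5 alone was called at 7 weeks (0.97, KO minus WT), and its 4 neighbours differed by -0.15 to -0.02. On chromosome 9, Adamts15 (-0.61) lies beside Adamts8 (0.02), which was not called. Of the 6 members with 2 features, Mmp11 differed by 0.03 on the brighter and 0.27 on the dimmer feature, Adam15 by 0.14 and -0.05, and Adamts14 by -0.22 and -0.18.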
